A study of Drosophila melanogaster with 4 samples.

Results

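RPD3 is a class I histone deacetylase, and the regions described here are its 216 enriched regions (clusters) on chromosome 4 and on the heterochromatic sequences of the Drosophila melanogaster genome. They were chosen by position alone, out of the 7145 clusters of a list that combines 2 ChIP-seq replicates. The members lie on 8 sequences of FlyBase release 5: chromosome 4, the 6 Het sequences (XHet, 2LHet, 2RHet, 3LHet, 3RHet and YHet) and U. On these sequences the list of ChIP replicate 1 held 108 of its 5496 clusters and that of ChIP replicate 2 held 98 of its 4991.

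The 2 ChIP samples were immunoprecipitated from nuclei of 3rd instar larvae with the antibody labelled RPD3-Q3451, and 2 Input samples, of chromatin without immunoprecipitation, went with them. All 4 samples came from the wild-type Oregon-R strain, with no treatment named in the labels. The labels give neither the sex of the larvae nor the share of each tissue, so each cluster is a mean over the cells of the homogenized larvae. They do not say whether the replicates were separate collections, so the differences between them may be technical only.

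Histone deacetylases remove acetyl groups from histone tails, and RPD3 does so as the catalytic subunit of several corepressor complexes. In flies, mutations of Rpd3 modify position-effect variegation, the patchy silencing of a gene placed next to heterochromatin. Chromosome 4 is the smallest chromosome. Most of it carries heterochromatin proteins, yet active genes are interspersed along it. The Het sequences are scaffolds of pericentric and Y heterochromatin that were assigned to a chromosome arm. U joins scaffolds that were assigned to none, so neighbouring positions on U need not be neighbours in the genome.

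Each cluster carries 1 score, which the authors' files give without a unit. For most clusters the score was the logarithm to base 2 of a ratio of whole numbers plus 1 constant per list, so the score is given here as log2, where a difference of 1 is a 2-fold difference. The lists hold no read counts, the depth of the samples is unknown, and a position outside a cluster has no value. Where 3 scores of a cluster stand together, they are the combined score and those of overlapping clusters in replicates 1 and 2, the highest where a replicate had several. A combined cluster was counted as found in a replicate where at least 1 bp of it lay under a cluster of that replicate.

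Replicate support was lower on chromosome 4, the pooled Het sequences and U than on the main arms X, 2L, 2R, 3L and 3R, and lowest on U. Of the single Het sequences, XHet with 3 of 4 clusters in both replicates and 2LHet with 2 of 3 lay above the arms. Both replicates held 78 of the 216 members, 36.1% (Wilson 95% interval 30.0 to 42.7%), where 53.7% of the 7145 combined clusters were in both. On chromosome 4 it was 41 of 95 clusters, 43.2% (33.7 to 53.2%), on the Het sequences 25 of 70, 35.7% (25.5 to 47.4%), and on U 12 of 51, 23.5% (14.0 to 36.8%). On the main arms it was 3762 of 6929, 54.3% (53.1 to 55.5%). Among the 50% of clusters with higher scores in each list, the share was 25.0% on chromosome 4. It was 23.3% on the Het sequences and 17.8% on U. No share of the main arms or the whole list is given for this setting, so these values have no comparison. The cuts were 0.49 in the combined list and 0.80 and 0.84 in the replicates. On chromosome 4 the upper quartiles of the replicate scores, 0.70 and 0.75, lay below those cuts, so most of its replicate clusters were left out. The intervals given cover counting error only, and clusters of a list are not independent replicates.

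The rest of the members divided unevenly between replicate 1, replicate 2 and neither. Neither replicate held 94 members, 43.5%, against 25.7% of all combined clusters. The share in neither was 30.5% on chromosome 4 (29 clusters), 48.6% on the Het sequences (34) and 60.8% on U (31), against 25.2% on the main arms. Replicate 1 alone held 28 members, 13.0%, and replicate 2 alone 16, 7.41%, where the whole list had 15.5% and 4.98%. With 2 ChIP samples, an exact two-sided test over paired samples gives no p under 0.5, so no test between sequences was made.

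**Figure D1:**
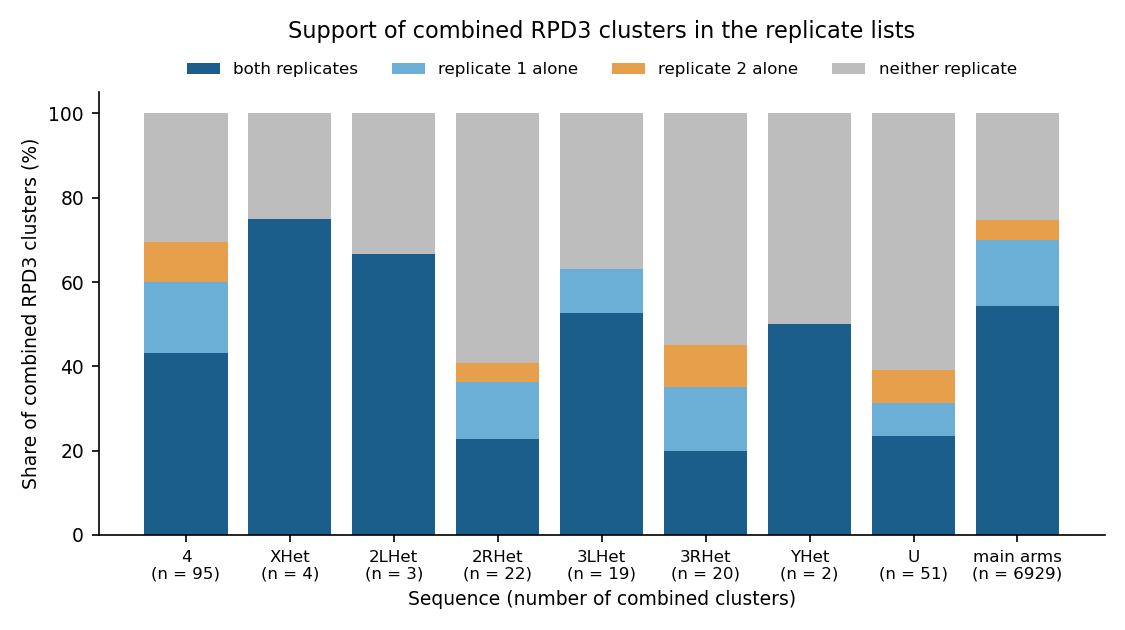
Share of combined RPD3 clusters (%) found in both ChIP replicate lists, in 1 of them or in neither, for each sequence, with the number of clusters under each bar. The share in both was 43.2% on chromosome 4 and 23.5% on U, against 54.3% on the main arms, and XHet, 2LHet and YHet hold at most 4 clusters each.

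The 8 sequences differed widely in how much of them lay under clusters, and chromosome 4 came closest to the arms. In the combined list clusters covered 16.1% of chromosome 4, 5.70% of XHet, 2.60% of 2LHet, 1.46% of 3LHet, 1.19% of 2RHet, 1.18% of 3RHet, 1.17% of YHet and 0.839% of U, against 20.2% of the main arms. In the replicates chromosome 4 was 10.1% and 8.49% covered, against 15.9% and 13.2% of the main arms.

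XHet was the most covered of the Het sequences in both replicates, at 4.72% in replicate 1 and 4.77% in replicate 2. The 2LHet values were 1.14% and 1.82%, those of 3LHet 1.03% and 0.882%, and those of YHet 0.581% and 0.635%. The lowest values of the Het sequences were on 2RHet, at 0.559% and 0.435%, and on 3RHet, at 0.512% and 0.427%. 2RHet was the higher of the pair in each replicate, with means of 0.497% ± 0.0875 and 0.469% ± 0.0598 (SD, n = 2 each, both sequences from the same samples), and 2 samples allow no test of that difference. Only XHet, 2LHet and YHet were covered further in replicate 2 than in replicate 1 among the 8 sequences. How much of each sequence reads could be placed on is unknown, and its part in these shares was not tested.

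**Figure D2:**
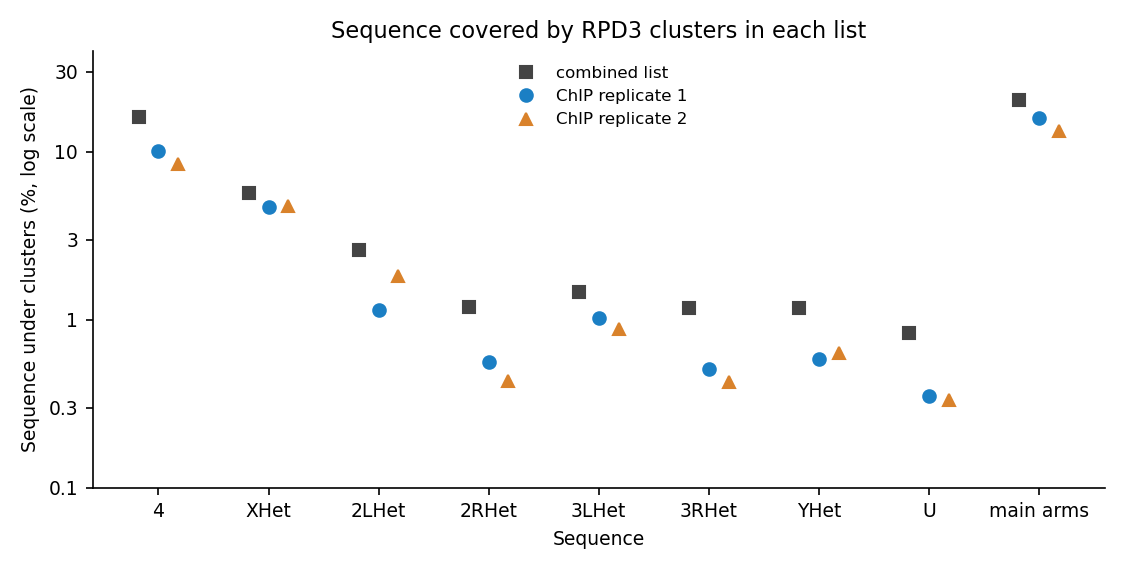
Percent of each sequence under RPD3 clusters (log scale) in each of the 3 lists. Chromosome 4 lies at 16.1%, 10.1% and 8.49%, the main arms at 20.2%, 15.9% and 13.2%, and the Het sequences other than XHet and 2LHet and the sequence U lie at 1.46% or less in each list.

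Chromosome 4 carried RPD3 clusters along most of its 1.35 Mb, the first at 23049 and the last ending at 1348754. Their median width was 2028 bp and the widest measured 8705 bp, against medians of 2313 bp on the main arms in the combined list. Among windows of 100 kb, that at 0.5 to 0.6 Mb had 21.1% under combined clusters, 16.4% under those of replicate 1, the most of that list, and 11.6% under those of replicate 2. At 1.2 to 1.3 Mb the combined value was also 21.1%, with 10.7% and 10.5% in the replicates. Replicate 2 covered most at 1.0 to 1.1 Mb, with 14.3%, where the combined list had 19.9% and replicate 1 had 13.5%. The 3 lists had the same least covered window, at 0.7 to 0.8 Mb, with 4.37%, 2.30% and 2.07%.

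The widest gap between clusters was at the same place in the 3 lists. It ran from 235369 to 327811 in the combined list, over 92.4 kb, and spanned 92.6 kb in replicate 1 and 96.7 kb in replicate 2. In the last 51857 bp of the chromosome the lists differed widely. There the combined list held 7 clusters over 21.1% of the sequence, where replicate 1 covered 6.24% and replicate 2 covered 2.74%. Of these 7 clusters 1 was in both replicates and 5 were in neither.

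The strongest cluster of chromosome 4 in each replicate was the same one. It lay at 1291611 to 1293749 over 2139 bp, with a combined score of 1.44 and replicate scores of 1.48 and 1.50. The second highest in each replicate lay at 1346436 to 1348754, a cluster named after its values were seen, with a combined score of 0.82 and replicate scores of 1.14 and 1.31. By combined score, the next among the clusters in both replicates was 378185 to 381571, with a combined score of 0.92 and replicate scores of 0.91 and 0.93. The cluster at 806148 to 810185 scored 0.90, 0.92 and 0.96. The first and the last 2 of these clusters differed between replicates by less than 0.1.

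Other high-scoring clusters of chromosome 4 with both replicates were at 506299 to 508404 and 86189 to 91016. The cluster at 506299 had a combined score of 0.88 and replicate scores of 0.85 and 0.93. The cluster at 86189 scored 0.86, 0.91 and 0.89. The replicates covered 98.2% and 94.9% of this 4828 bp domain.

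The other 5 of the 10 highest combined scores on chromosome 4 belonged to narrow clusters that neither replicate held. The top score, 3.12, was at 228268 to 229268, a cluster of 1001 bp, which is the minimum width of the combined list. It ranked the 7th of all 7145 combined clusters. Scores of 1.31, 1.19, 1.17 and 0.95 belonged to the clusters that start at 1304039, 474634, 1311813 and 23049. All 5 were at most 1103 bp wide, under the 1301 bp of the narrowest replicate cluster.

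The widest clusters of chromosome 4 were in both replicates, with moderate scores. The widest spanned 8705 bp at 1046751 to 1055455 with a combined score of 0.82 and replicate scores of 0.84 and 0.96. Replicate 1 covered 99.7% of it with 1 cluster and replicate 2 covered 94.6% with 2, of which the higher score is given and the other was 0.49. The next, 8234 bp at 880462 to 888695, scored 0.53, 0.62 and 0.62, and replicate 2 covered 59.5% of it with 2 clusters, the other scoring 0.42.

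Of the 5 widest, the cluster at 86189 described above was covered almost whole by both replicates, while at 2 others they split. At 565753 to 570699 replicate 1 covered 88.3% and replicate 2 covered 31.6%, with scores of 0.66 and 0.42. At 674406 to 679172 they covered 92.7% and 31.4%, with scores of 0.69 and 0.53. In both places replicate 2 covered a smaller stretch of a domain that replicate 1 covered almost whole.

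Clusters of chromosome 4 in a single replicate mostly had low combined scores, as did those of the main arms. On chromosome 4 replicate 1 alone held 16, with a median of 0.33, and replicate 2 alone held 9, with a median of 0.35. The 41 in both had a median of 0.52. On the main arms these medians were 0.37, 0.36 and 0.87. The shares in 1 replicate alone were 16.8% and 9.47% on chromosome 4, against 15.6% and 4.91% on the main arms. The highest of chromosome 4 in replicate 1 alone was at 1333462 to 1335363, with 0.80 in the combined list and 1.05 in replicate 1. The second was at 522362 to 523452, with 0.43 and 0.48. In replicate 2 alone they were at 682606 to 685408, with 0.55 in the combined list and 0.87 in replicate 2, and at 1143522 to 1146436, with 0.40 and 0.54.

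Seen from the replicate lists, 42 of the 58 replicate 1 clusters on chromosome 4 overlapped replicate 2, 72.4%, where the whole list had 77.3%. In the other direction 43 of 52 overlapped, 82.7%, where the whole list had 91.4%. Every replicate cluster on chromosome 4 overlapped a combined cluster. The bases covered in both replicates, divided by those covered in either (the Jaccard index), came to 0.551 on chromosome 4, against 0.697 on the main arms.

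XHet, the X scaffold of 0.204 Mb, was the Het sequence on which the replicates met most fully apart from the single cluster of YHet. Both held 3 of its 4 clusters, and the Jaccard index was 0.885. The strongest lay at 83599 to 86506, with a combined score of 1.36 and replicate scores of 1.38 and 1.52. The cluster at 59660 to 62926 scored 0.98, 0.98 and 1.09.

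The widest XHet cluster, also shared, 4412 bp wide at 74562 to 78973, had a combined score of 0.57 and replicate scores of 0.64 and 0.65. The remaining one, 1044 bp at 67499 to 68542, scored 0.40 and was in neither. The 4 lay within 59660 to 86506, so most of XHet held no cluster.

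2LHet had 3 clusters and YHet had 2. On 2LHet, 31904 to 36823 had a combined score of 0.43 and replicate scores of 0.40 and 0.58, and the replicates covered 36.0% and 80.6% of it. The cluster at 167092 to 170702 scored 0.53, 0.60 and 0.63, and that at 20532 to 21582, with 0.36, was in neither. On YHet the cluster at 304323 to 306773 scored 1.48, 1.37 and 1.74, the highest combined score of the Het clusters in both replicates. That at 327449 to 329064, with 0.78, was in neither.

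2RHet, the longest Het sequence at 3.29 Mb, had 22 clusters, of which 5 were in both replicates and 13 in neither. They lay towards its ends, with 9 in the first and 10 in the last of 4 equal parts. A stretch with no combined cluster ran from 1622587 to 2774985. The 3 highest-scoring shared clusters were at 3197031 to 3200438 (combined 0.84, replicates 0.77 and 0.93), at 469851 to 472877 (0.79, 0.81 and 0.86), and at 389661 to 393127, the widest at 3467 bp (0.67, 0.82 and 0.70).

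The highest combined score of 2RHet had no replicate cluster. It was 2.19, at 1384008 to 1385066, in a cluster of 1059 bp that ranked the 35th of the whole list. In replicate 1 alone the highest was at 369204 to 371277, with 0.52 in the combined list and 0.91 in replicate 1. The cluster at 2823210 to 2825154, with 0.37 and 0.50, was in replicate 2 alone.

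3LHet had the most shared clusters of the Het sequences, 10 of 19. The highest, at 2396570 to 2400302, was also the widest at 3733 bp, with a combined score of 0.78 and replicate scores of 0.90 and 0.97. It was followed by 701158 to 703844 (0.72, 0.70 and 0.82) and 708267 to 710892 (0.63, 0.57 and 0.79). Their scores were higher in replicate 2 than in replicate 1 in each case.

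Unshared clusters of 3LHet again held its top score, 2.12, in a cluster of 1008 bp at 516987 to 517994 that was in neither replicate. The highest in replicate 1 alone was at 1283862 to 1286106, with 0.43 in the combined list and 0.66 in replicate 1, and 0 were in replicate 2 alone.

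3RHet had 20 clusters, 4 of them in both replicates and 11 in neither. The first pair of shared clusters stood above the rest, at 2348375 to 2350518 (combined 1.25, replicates 1.51 and 0.96) and at 2106184 to 2108280 (1.19, 1.14 and 1.23). The next, at 1934346 to 1936563, was the widest of the sequence at 2218 bp and scored 0.42, 0.45 and 0.51. The Jaccard index of 3RHet, 0.450, was the lowest of the 8 sequences.

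A neighbouring pair near the start of 3RHet stood out by its combined scores. The cluster at 66194 to 67199 scored 2.36 and was in neither replicate. That at 68117 to 69483 scored 2.00 in the combined list and 2.08 in replicate 2, and was not in replicate 1. In replicate 1 alone the highest was at 2473702 to 2475427, with 0.31 and 0.41.

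U, the longest of the sequences at 10.0 Mb, had 51 clusters, with higher median scores than chromosome 4 or the pooled Het sequences. The median score on U was 0.84 among combined clusters and 1.00 and 1.25 among those of replicates 1 and 2, against 0.49, 0.81 and 0.85 on the main arms. The Het sequences had 0.45, 0.56 and 0.63, and chromosome 4 had 0.38, 0.50 and 0.55. Chromosome 4 and the pooled Het sequences thus lay below the arms in the 3 lists, and U lay above them. Among the Het sequences XHet, with medians of 0.77, 0.98 and 1.09, and YHet, with 1.13, 1.37 and 1.74, went the other way and lay above the arms, on at most 4 clusters each.

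The shared clusters of U included some of the strongest of the whole list. The highest, 2790 bp at 9710001 to 9712790, had a combined score of 2.92 and replicate scores of 2.95 and 3.04. The cluster at 7542039 to 7545897 scored 2.41, 2.45 and 2.36. At 5540810 to 5543135 the scores were 2.25, 1.70 and 2.73, and at 6383574 to 6387432 they were 2.07, 2.20 and 2.79. The first 2 of these scored nearly alike in the replicates, and the last 2 were higher in replicate 2. The last was named for its width. A shared cluster with a higher combined score, at 9094049 to 9096717, was named after its values were seen. It scored 2.10, 2.26 and 1.87, so it was higher in replicate 1. Over the 12 pairs of U that overlapped 1 to 1, replicate 2 was higher in 6.

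U also had the most high scores without replicate support. The highest of these, 2.95, was shared by 2 clusters of 1001 bp, of which the first lay at 7537319 to 7538319. In replicate 1 alone the highest was at 6731617 to 6733664, with 0.81 in the combined list and 0.90 in replicate 1. In replicate 2 alone it was at 2685677 to 2686891, with 1.08 and 1.60.

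Scores of at least 1 came with replicate support on nearly all main arm clusters and on a minority of the members. Of the 36 members with a score of at least 1, both replicates held 12, 33.3% (Wilson 95% interval 20.2 to 49.7%), where 96.6% of the whole list's 1482 clusters with such scores were in both. On the main arms it was 1419 of 1446, 98.1% (97.3 to 98.7%). By sequence, it was 1 of 5 on chromosome 4, 4 of 9 on the Het sequences and 7 of 22 on U. The limit of 1 was set with earlier results of these data known.

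The members with a score of at least 1 were narrower than those of the arms. Their median width was 1196 bp, against 5129 bp on the main arms. Of the 36, 21 were narrower than 1301 bp and 0 of these were in both replicates, while 12 of the 13 that measured at least 2000 bp were. The main arms had 24 such narrow clusters, with 0 in both, and 1419 of their 1420 of at least 2000 bp were in both. Narrow clusters with such scores thus were not in both replicates in either place, and they made up 21 of 36 such members against 24 of 1446 on the arms. The limit of 1301 bp is the width of the narrowest replicate cluster. At any score, 1 of 1124 main arm clusters under it was in both, so this lack of support is not particular to high scores.

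**Figure D3:**
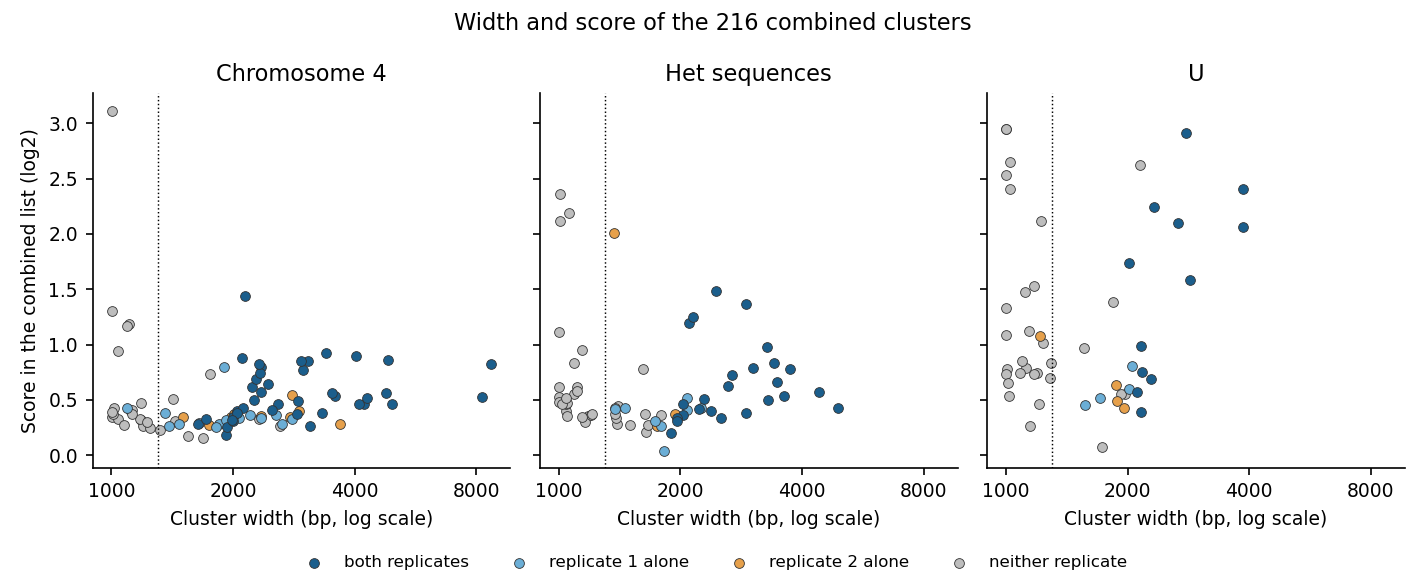
Width (bp, log scale) and log2 score of the 216 combined clusters on chromosome 4, the Het sequences and U, coloured by the replicate lists that held them, with a dotted line at 1301 bp, the narrowest replicate cluster. Clusters in both replicates lie right of the line, and the highest scores left of it, 3.12 on chromosome 4 and 2.95 on U, belong to clusters in neither.

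The gap to the arms varied between classes of width. Among clusters under 1301 bp, 0 of 21 on chromosome 4, 0 of 23 on the Het sequences and 0 of 26 on U were in both replicates, against 1 of 1124 on the main arms. From 1301 to 1999 bp the shares were 25.0%, 13.6% and 0%, against 9.88% on the arms. From 2000 to 2999 bp they were 58.8% on chromosome 4 (Wilson 95% interval 42.2 to 73.6%), 81.2% on the Het sequences (57.0 to 93.4%) and 76.9% on U (49.7 to 91.8%), against 73.9% on the arms (71.6 to 76.0%). Chromosome 4 thus stood above the arms in the narrower of these classes and below them in the wider, further off in both than over all widths. At 3000 bp or more, 15 of 16, 9 of 9 and 2 of 2 were in both, against 94.8% on the arms.

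Narrow clusters were a larger part of the members, at 21 of 95 on chromosome 4, 23 of 70 on the Het sequences and 26 of 51 on U, against 1124 of 6929 on the main arms. At a minimum width of 1301 bp, the shares in both replicates were 55.4% on chromosome 4, 53.2% on the Het sequences and 48.0% on U, where the whole list had 64.5%. Within classes of score the order of the sequences changed with the class. Below 0.35 the share in both was 21.1% on chromosome 4 (8 of 38), 26.7% on the Het sequences (4 of 15) and 0 of 2 on U, against 9.68% on the arms. From 0.35 to 0.5 it was 42.3% on chromosome 4 (11 of 26), 24.0% on the Het sequences (6 of 25) and 1 of 5 on U, against 21.5% on the arms. From 0.5 to 1 it was 80.8% on chromosome 4 (Wilson 95% interval 62.1 to 91.5%), 52.4% on the Het sequences and 18.2% on U, against 89.7% on the arms. In the 2 classes below 0.5 chromosome 4 thus had larger shares in both replicates than the arms (Wilson 95% intervals 11.1 to 36.3% and 25.5 to 61.1%). The Het sequences had a larger share below 0.35, on 15 clusters (10.9 to 52.0%). From 0.35 to 0.5 their share was near that of the arms (11.5 to 43.4%). From 0.5 upwards chromosome 4, the Het sequences and U had smaller shares than the arms.

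**Figure D4:**
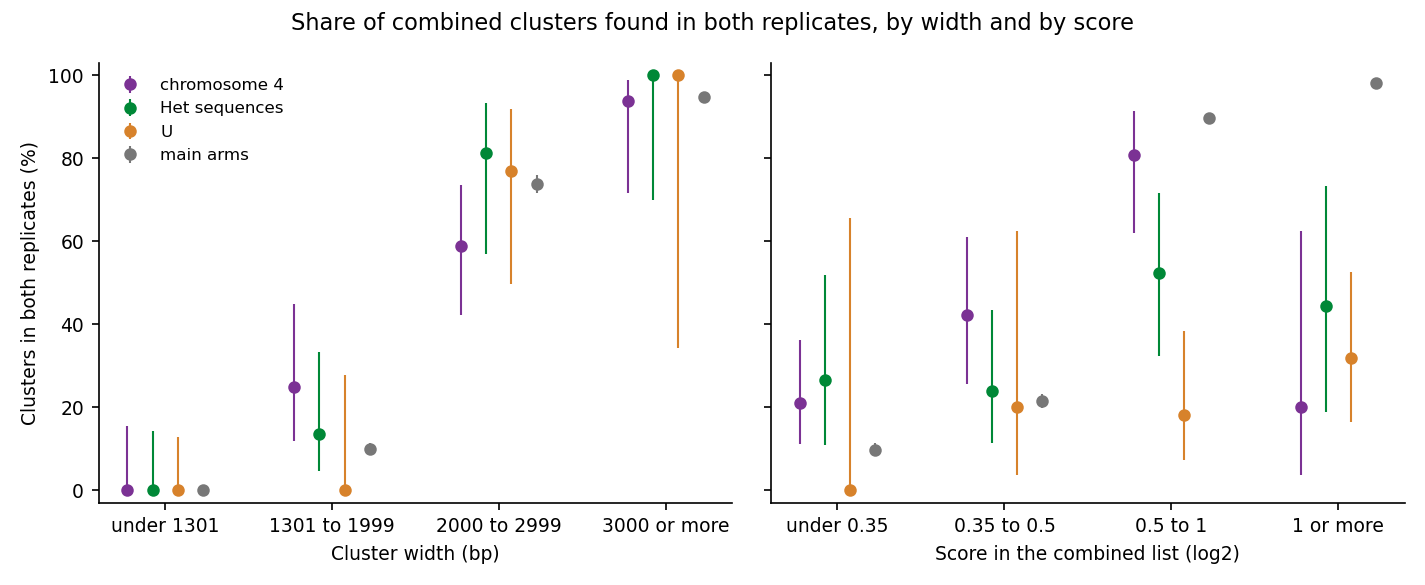
Share of combined clusters (%) in both replicates by class of width (left) and of log2 score (right), for chromosome 4, the Het sequences, U and the main arms, with Wilson 95% intervals as bars. The intervals overlap within 3 of the 4 width classes, while at scores of 1 or more the main arms stand at 98.1% and the Het sequences, the highest of the others, at 44.4%.

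Scores of clusters held by both replicates lay closer together on chromosome 4 and the Het sequences than on U. On chromosome 4, 38 pairs of clusters overlapped 1 to 1, with median scores of 0.59 in replicate 1 and 0.56 in replicate 2 and a median absolute difference of 0.088. The Het sequences had 25 pairs, with medians of 0.57 and 0.63 and a median absolute difference of 0.090, and replicate 2 was higher in 20 of them. U had 12 pairs, with medians of 1.79 and 1.38, a median absolute difference of 0.26 and a largest of 1.04. The 3402 pairs of the main arms had a median absolute difference of 0.11. Replicate 2 was higher in 21 of the 38 pairs on chromosome 4, 6 of the 12 on U and 1480 of the 3402 on the main arms. The constant of each list also differs, at -0.124 in replicate 1 and 0.013 in replicate 2, and its part in these directions was not tested.

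Ranks of these scores were alike on the Het sequences and U and less so on chromosome 4. Spearman's rho across clusters was 0.67 on chromosome 4, 0.92 on the Het sequences and 0.87 on U, against 0.89 on the main arms. Pearson's r was 0.79, 0.89 and 0.87, against 0.90. These describe clusters of 2 lists, which share the strain, the stage and the antibody. Scores on chromosome 4 ran over a shorter range than those on U, and its part in the lower rho was not tested.

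**Figure D5:**
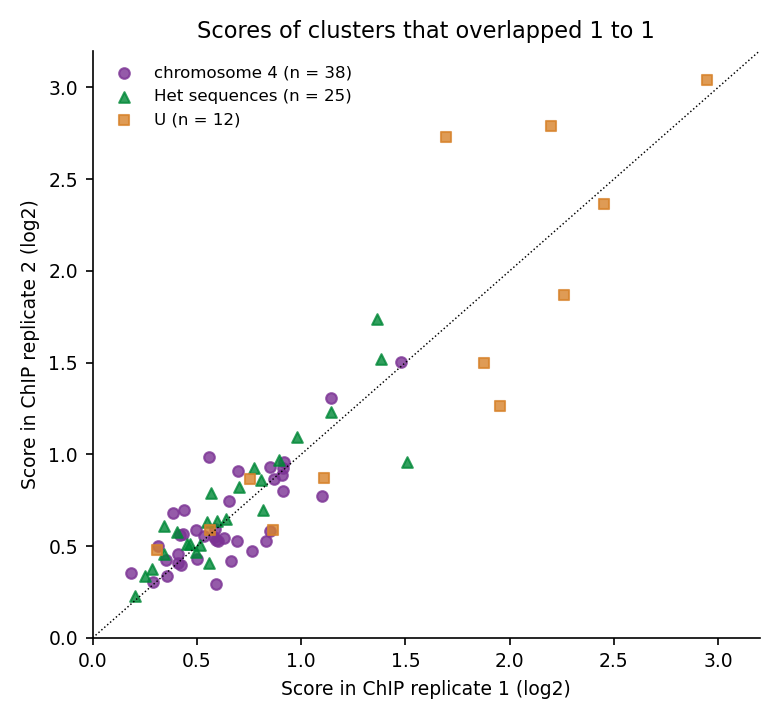
Log2 score in ChIP replicate 1 and in ChIP replicate 2 of clusters that overlapped 1 to 1, for chromosome 4, the Het sequences and U, with a dotted line of equality. Chromosome 4 pairs gather below 1, with medians of 0.59 and 0.56, and the pairs of U reach 2.95 and 3.04.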

How the data were processed

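RPD3 ChIP-seq lists of 2 ChIP samples and the combined list were used. Per the submitters' processing notes, Bowtie 0.12.7 was the aligner. The deposited lists give regions on FlyBase release 5, per the file headers, with 1 score each. Which caller and thresholds were used, and how replicates were joined, is not stated in any source used here. The deposited score was taken as log2 because, for 87.7% of combined, 99.0% of replicate 1 and 99.2% of replicate 2 clusters, it equalled log2 of a ratio of whole numbers plus 1 constant per list (relative tolerance 1e-12).

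Overlap needed 1 bp. Sequence lengths came from the headers. Coordinates were used as deposited and taken as 1-based, although 1 cluster of 2RHet is listed with a start of 0. Python 3.11.15, NumPy 2.4.6 and SciPy 1.17.1 were used, and overlap counts and ratio recovery were tested on simulated data or base by base. Gene annotation was on hand for release 6 alone, and clusters are therefore named by position, with no sequence printed. Named clusters are, on chromosome 4, the 10 highest-scoring, the 5 widest, the 3 highest in neither replicate and the 2 highest in each replicate alone. On other sequences they are the 3 highest in both, the widest and the highest of each other class, or every cluster up to 5. The members, classes and rules were chosen with earlier results of these data known. Alternatives were 50% overlap, the higher-scoring 50% of each list, a minimum width, merging within 200 bp and each replicate alone.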

Additional observations from a re-analysis of the deposited data

How the results depend on the processing

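No paired analysis was possible because Input clusters were not analysed here, which leaves ChIP as 1 group. Requiring 50% overlap of the shorter cluster left the shares in both replicates as they were, and merging clusters closer than 200 bp moved the share on chromosome 4 to 44.8%. Among the 50% of clusters with higher scores, the shares in both were 25.0% on chromosome 4, 23.3% on the Het sequences and 17.8% on U, and the covered shares were 6.89% of chromosome 4, 0.680% of the Het sequences and 0.742% of U. Each list was cut at its own median score there, 0.49 in the combined list and 0.80 and 0.84 in the replicates. With a minimum width of 1301 bp the shares in both were 55.4%, 53.2% and 48.0%, where the whole list had 64.5%, and the covered shares were 14.4%, 1.15% and 0.552%. No main arm covered shares are given for these settings, and no main arm or whole list share in both for the higher-scoring 50%. With support asked of 1 replicate, the shares ran from 52.6% to 60.0% on chromosome 4 and from 40.0% to 47.1% on the Het sequences, and were 31.4% on U with either. In the whole list 53.7% of clusters were in both replicates, 15.5% in replicate 1 alone and 4.98% in replicate 2 alone. Replicate lists alone covered 8.49% to 10.1% of chromosome 4, 0.713% to 0.790% of the Het sequences and 0.332% to 0.352% of U. They covered 13.2% to 15.9% of the main arms. The score and width limits leave fewer clusters by construction, and asking for 1 replicate is a looser rule; what else moves these shares was not tested. Unknown depth limits what the lack of a cluster means.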

Other observations

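The ratio behind a score can be read in lowest terms, such as 9 to 1 for the top score of chromosome 4, 16 to 3 for that of 3RHet and 8 to 1 for the tied top scores of U in neither replicate. These are not read counts, since any multiple gives the same score. The replicate 1 cluster of 3517 bp at 6383593 to 6387109 of U, for example, has a ratio of 5 to 1. In the combined list 84 clusters of chromosome 4, 65 of the Het sequences, 50 of U and 6070 of the main arms had such a ratio. Over these alone, the median of the larger number was 307 on chromosome 4, 241 on the Het sequences and 59.5 on U, against 415 on the main arms. The larger number was under 50 for 10 of all 95 clusters on chromosome 4, 10 of 70 on the Het sequences and 22 of 51 on U, against 364 of 6929 on the arms. Its link to replicate support was not tested.

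Some clusters of U matched each other in width or score. The clusters at 6383574 to 6387432 and 7542039 to 7545897 were each 3859 bp wide, and those at 4021686 to 4023706 and 9288234 to 9290254 were each 2021 bp wide. The first pair scored 2.07 and 2.41, both shared. The second differed, with 0.60 in replicate 1 alone and 1.74 in both replicates. The clusters at 7537319 to 7538319 and 9623030 to 9624030 shared the score 2.95, and those at 8644860 to 8645945 and 8955473 to 8956667 shared 0.74. Equal scores were common, since 16.1% of all combined clusters and 37.3% of those of U had a score tied with another in the list. Whether they are copies of 1 sequence was not tested.

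Of the replicate clusters on these sequences, 3 overlapped no combined cluster. They lay at 773746 to 775678 of 3LHet in replicate 1 (score 0.70), and at 954103 to 955559 of 3LHet (1.82) and 37798 to 39182 of U (0.99) in replicate 2. The first combined cluster of 2RHet, ending at 1143, is listed with a start of 0, which is outside 1-based coordinates.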
